A study of Homo sapiens with 6 samples.

Results

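Amino acid transporters are described here through 9 genes, a set named by symbol with earlier results of these data known: SLC7A5, SLC3A2, SLC7A11, SLC1A5, SLC1A4, SLC38A1, SLC38A2, SLC7A1 and SLC6A9. All 9 were found among the 20115 genes of the authors' deposited gene table, and none of the 2014 readthrough regions of the second deposited table carries the name of one of them. RNA came from MDA-MB-231, a line of a human triple-negative breast cancer, in 3 libraries of cells in which doxycycline induced lentiviral short hairpins against UBE3D and 3 libraries of control cells. UBE3D encodes an E3 ubiquitin ligase. The labels mark every sample as pooled, do not say whether the control carried a hairpin or received doxycycline, and leave unsaid whether the libraries are separate cultures, so p-values measure a spread that may be technical. The question named in the design text is which genes and readthrough transcripts changed on UBE3D depletion.

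Cells take up amino acids through families of carrier proteins that differ in substrate and in driving force. Heterodimeric exchangers pair the glycoprotein 4F2hc, encoded by SLC3A2, with a light chain that carries the substrate. The light chain LAT1, from SLC7A5, imports leucine and other large neutral amino acids, while xCT, from SLC7A11, imports cystine in exchange for glutamate and so supplies cysteine for glutathione. Sodium-coupled carriers such as ASCT2 (SLC1A5), SNAT1 (SLC38A1) and SNAT2 (SLC38A2) bring in glutamine and other small neutral amino acids. In many cells several of these genes are induced by the transcription factor ATF4 when amino acids are short, and SLC7A11 is also a known target of NRF2. Uptake of glutamine and cystine is known as a trait of triple-negative breast cancer lines.

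Some of the transporter mRNAs were modestly lower in UBE3D knockdown cells than in control cells. Of the 9 genes, 4 were lowered and none was raised in the authors' deposited table (adjusted p under 0.05), where 12.5% of all genes were called, 7.93% as lowered and 4.62% as raised. The lowered genes were SLC7A11, SLC7A5, SLC38A2 and SLC1A5, with decreases of 29.1%, 25.9%, 24.4% and 17.3% computed from the authors' deposited table. The log2 fold change lay below 0 for 8 of the 9 genes, against 56.8% of all genes, and its median over the 9 was -0.23, against -0.03 for all genes in the authors' deposited table. Calls are more frequent among abundant genes. Among members at 500 or more mean normalized counts, 4 of 7 were lowered, where 16.6% of the 4223 genes at or above that mean were lowered and 5.23% raised in the authors' deposited table. These shares describe a short list and were not put to a test of the list. The count of 4 lowered members depended on the test: it was 0 with a Holm adjustment of the deposited p-values, and 1 (SLC7A5) in a Wald test with the fold changes of the authors' deposited table shifted by their median over all genes.

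Each value stands for knockdown over control with 3 libraries a side. The log2 fold changes and standard errors (SE) are those of the authors' deposited table, which gives no value per library, so the spread within each group, its depth and any overlap between groups cannot be shown. The deposited fold changes are shrunken toward 0, so true changes may be larger. UBE3D itself was lower in the authors' deposited table (log2 fold change -0.80, SE 0.37, adjusted p = 0.00632). Its mean of 36.7 normalized counts is low, and a Wald test on the shrunken change did not call it (adjusted p = 0.295). Of the 6 genes fixed as markers of MDA-MB-231, all were in the table, with 82.6 (SPARC) to 11376 (AXL) mean normalized counts, and 5 of them were lowered in the authors' deposited table. Luminal markers ranged from 9.74 (FOXA1) to 1388 (KRT19) mean normalized counts, with ESR1 at 22.2 and PGR at 50.2, and of 8 CDH1 rose and EPCAM fell in the authors' deposited table. The 5 blood and endothelial markers lay between 15.6 and 51.1 mean normalized counts and none was called in the authors' deposited table.

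**Figure D1:**
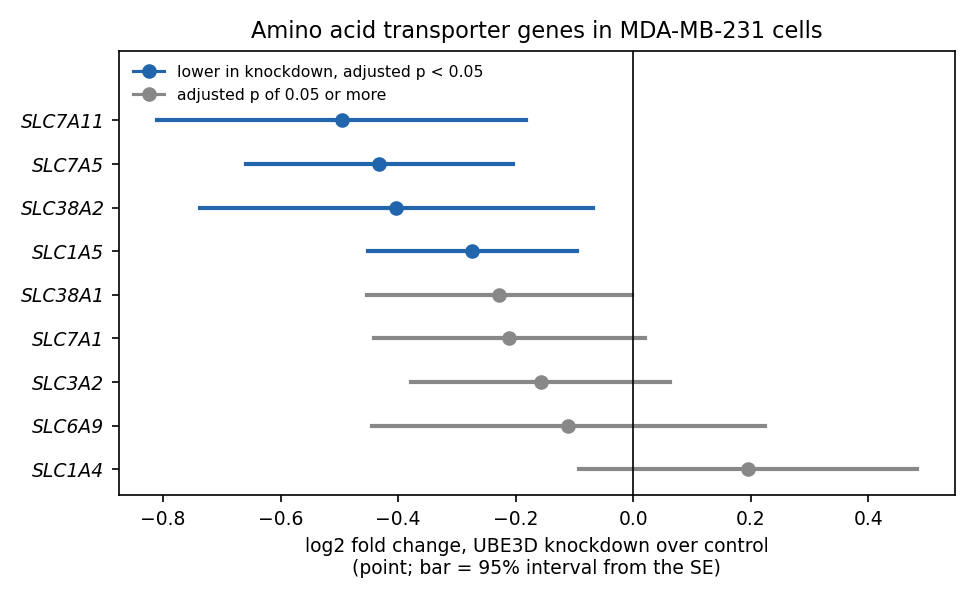
Log2 fold change of each transporter gene, UBE3D knockdown over control (x axis, log2 units), with 1 gene a row; points are deposited values and bars are 95% intervals from the SE. The 4 genes past the adjusted p threshold lie between -0.50 and -0.27, and SLC1A4, at 0.20, is the 1 gene above 0.

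Both light chain genes were lowered and the gene of their shared heavy chain did not pass the threshold, though the intervals do not separate them. SLC7A5, on chromosome 16 (87830023 to 87869488, minus strand, GRCh38), was lowered 1.35-fold in the authors' deposited table (log2 fold change -0.43, SE 0.12, adjusted p = 0.000210). With 4574 mean normalized counts it was the most abundant of the 9 genes in the authors' deposited table, above 99.1% of all genes. SLC7A11, on chromosome 4 (138164097 to 138242349, minus strand), was lowered 1.41-fold (log2 fold change -0.50, SE 0.16, adjusted p = 0.00142) at 819 mean normalized counts in the authors' deposited table. Of all genes at or above 500 mean normalized counts, 7.70% had a lower log2 fold change than SLC7A11 and 9.40% a lower one than SLC7A5.

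SLC3A2, the heavy chain gene on chromosome 11 (62856102 to 62888875, plus strand), was at -0.16 (log2 fold change, SE 0.11, adjusted p = 0.275) at 2208 mean normalized counts in the authors' deposited table. SLC7A5 minus SLC3A2 was -0.27 on the log2 scale (95% interval -0.59 to 0.04). SLC7A11 minus SLC3A2 was -0.34 (-0.72 to 0.05), so both intervals include 0. These intervals treat the errors of a pair of genes as independent, although they come from the same libraries, and they are not adjusted for the 5 pairs compared in all. The other light chains known to pair with SLC3A2 did not pass the threshold. SLC7A6, which encodes y+LAT2, was at -0.04 (log2 fold change, SE 0.07, adjusted p = 0.746) at 830 mean normalized counts, about the count of SLC7A11, in the authors' deposited table. SLC7A7 (-0.07), SLC7A8 (-0.15) and SLC7A10 (-0.09) had log2 fold changes with adjusted p of 0.481 to 0.767 at no more than 61.7 mean normalized counts, per the authors' deposited table.

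Of the glutamine carriers, SLC1A5 and SLC38A2 were lowered and SLC38A1 lay just outside the threshold. SLC1A5, on chromosome 19 (46774883 to 46788594, minus strand), was lowered 1.21-fold (log2 fold change -0.27, SE 0.09, adjusted p = 0.00603) at 1289 mean normalized counts in the authors' deposited table. Its SE was the smallest of the 9. SLC38A2, on chromosome 12 (46358189 to 46372867, minus strand), was lowered 1.32-fold (log2 fold change -0.40, SE 0.17, adjusted p = 0.0138) at 3126 mean normalized counts in the authors' deposited table. Its SE was the largest of the 9, and the call did not hold at an adjusted p under 0.01 or in a Wald test on the shrunken values (adjusted p = 0.209). Its neighbour and paralog SLC38A1 (chromosome 12, 46183063 to 46270017, minus strand) was at -0.23 (log2 fold change, SE 0.11, adjusted p = 0.0863) at 3012 mean normalized counts in the authors' deposited table. SLC38A2 minus SLC38A1 was -0.18 on the log2 scale, with a 95% interval of -0.58 to 0.23.

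SLC1A4 encodes ASCT1, a carrier of alanine, serine, cysteine and threonine and the closest paralog of ASCT2. It lies on chromosome 2 (64988477 to 65023865, plus strand) and was the 1 member above 0, at 0.20 (log2 fold change, SE 0.15, adjusted p = 0.241) at 188 mean normalized counts in the authors' deposited table. SLC1A5 minus SLC1A4 was -0.47 on the log2 scale (95% interval -0.81 to -0.13), the 1 pair of the 5 whose interval left out 0. SLC7A11 minus SLC7A5, the remaining pair, was -0.06 (-0.45 to 0.32).

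The cationic and glycine carriers did not pass the threshold. SLC7A1 encodes CAT1, which imports arginine and lysine, and lies on chromosome 13 (29509410 to 29595688, minus strand). It was at -0.21 (log2 fold change, SE 0.12, adjusted p = 0.129) at 3144 mean normalized counts in the authors' deposited table. SLC6A9, on chromosome 1 (43991500 to 44031467, minus strand), encodes the glycine transporter GlyT1. It was the least abundant member at 139 mean normalized counts and was at -0.11 (log2 fold change, SE 0.17, adjusted p = 0.570) in the authors' deposited table. A miss of the threshold does not show that these genes were unaltered, since the 95% interval of each reached down to -0.44 on the log2 scale.

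**Figure D2:**
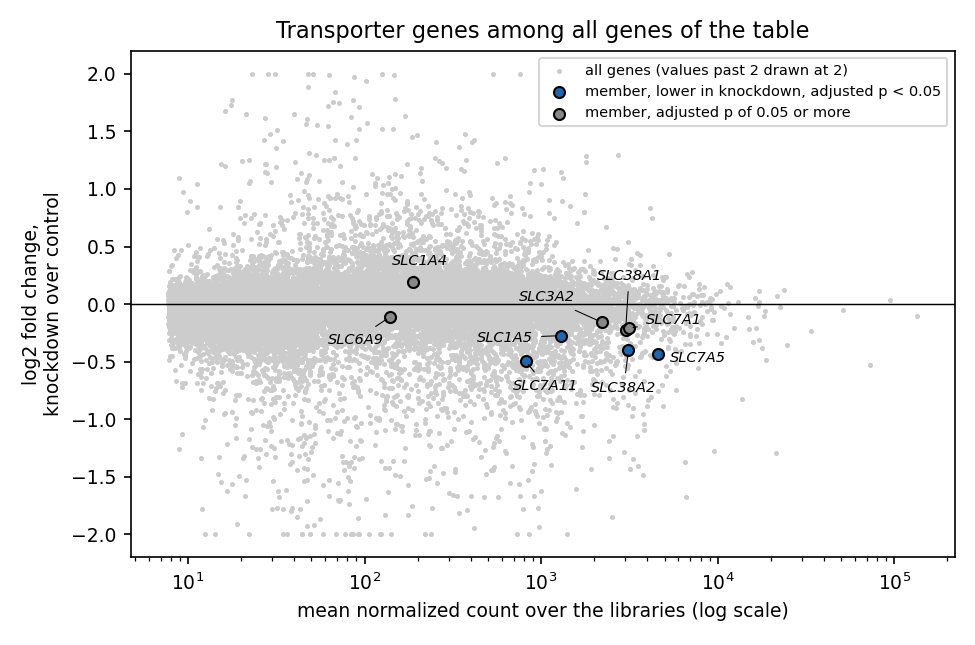
Log2 fold change (y axis, knockdown over control) against mean normalized count (x axis, log scale) for all 20115 genes in grey, with the 9 transporter genes marked. Of these, 7 lie at 819 or more mean normalized counts and all 7 are below 0, while SLC1A4 and SLC6A9, at 188 and 139, lie at 0.20 and -0.11.

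Per kilobase of annotated exon, SLC7A5 was the highest of the 9 at 964 mean normalized counts per kb, followed by SLC38A2 at 473, SLC3A2 at 426, SLC7A1 at 409, SLC1A5 at 387 and SLC38A1 at 301, computed from the authors' deposited table and GENCODE 29. SLC7A11 followed at 84.9 counts per kb, and SLC1A4 and SLC6A9 were both at 27.0 after rounding, computed in the same way from the authors' deposited table. Per kb of merged exon the value of SLC3A2 was below that of SLC7A5. The mRNA made in these cells may be shorter than the merged exons, so the amounts of both mRNAs are not ranked. No spread of these levels is given, so whether neighbours in this order differ cannot be said, and exon lengths merge all annotated transcripts of a gene.

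Some counts may hold reads of other genes. SLC7A5 has pseudogene copies on chromosome 16, and SLC7A5P2, with 536 bases that are 96.3% identical to the SLC7A5 mRNA, had 153 mean normalized counts and a value of 0.16 (log2 fold change, SE 0.14, adjusted p = 0.338) in the authors' deposited table. SLC7A11 overlaps SLC7A11-AS1 over 14081 bases (log2 fold change -0.01, adjusted p = 0.980), and SLC6A9 overlaps CCDC24 over 5029 bases (0.11, adjusted p = 0.614), each with a mean of 44.8 normalized counts or less per the authors' deposited table. Libraries were stranded per the labels' protocols, but the strand setting of the counting is not stated there, so a share of such reads cannot be told apart.

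The 3' UTRs of the members were searched for GATTGAA and CTTATCT, a pair of 7-base words found by a scan of the same gene table, so their shares of called genes there are a description. They are shown because 5 such sites lie in 4 of the members, SLC7A11 among the lowered ones. GATTGAA was present in the 3' UTR of SLC7A11, SLC38A1 and SLC7A1, and CTTATCT in that of SLC38A2 and SLC7A1. The sites are given in the direction of transcription from GENCODE 29 transcripts on GRCh38, all on the minus strand, with the word in capitals.
SLC7A11, chr4:138164784-138164813: tttggtctagtGATTGAAaacacaagaaca
SLC38A1, chr12:46187445-46187474: ccatcccatgtGATTGAAttgtccatagct
SLC7A1, chr13:29514081-29514110: gactgttctggGATTGAAattgtgcatact
SLC38A2, chr12:46360914-46360943: tttttaagaaaCTTATCTgtatgttagaaa
SLC7A1, chr13:29514123-29514152: caccttctctcCTTATCTtgggaaccaggc

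Of the 3 members with GATTGAA, 1 was lowered (SLC7A11), and of the 6 without it 3 were lowered (SLC7A5, SLC38A2 and SLC1A5). At 500 or more mean normalized counts there are 4054 genes with a 3' UTR, of which 12.8% hold GATTGAA. Of these 37.9% were lowered, against 13.6% of those without it, computed from the authors' deposited table. CTTATCT is held by 13.9% of the same genes, of which 12.04% were raised, against 4.07% of those without it, while the lowered shares were 16.6% with it and 16.7% without it, computed from the authors' deposited table. Neither member that holds CTTATCT was raised, and SLC38A2 was lowered. The 3' UTR of SLC7A11, at 7859 bases, is the longest of the 9, and that of SLC3A2, at 182 bases, the shortest. The 3 members with GATTGAA have the 3 longest 3' UTRs, SLC38A1 at 5907 bases and SLC7A1 at 5070 after SLC7A11. The next is SLC7A5 at 2947 bases. The shares with and without a word were not matched for 3' UTR length. The sequences of the hairpins are not known here, and whether a word bears on a member was not tested.

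**Figure D3:**
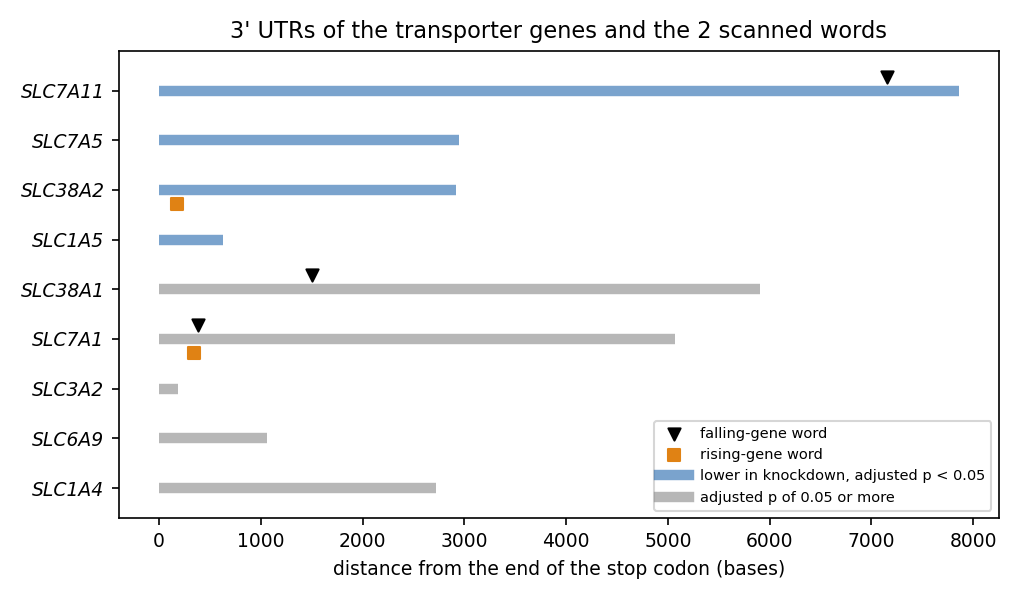
3' UTR of each transporter gene drawn to scale (x axis, bases from the end of the stop codon), with genes ordered by log2 fold change and the sites of GATTGAA (triangles, falling-gene word) and CTTATCT (squares, rising-gene word). SLC7A11, the top row with 7859 bases, has its GATTGAA at base 7154, and SLC7A5 and SLC1A5 have neither word.

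Promoter windows from RefSeq (GRCh38.p14, 250 bases before to 50 after a start) were found for 8 of the 9 members, 14 windows in all. SLC7A11 is not in that table. They were searched on both strands for 3 sequences: TGATGNAA, the core bound by ATF4 with C/EBP proteins, TGACNNNGC, the core of the antioxidant response element, and CACGTG, the E-box bound by MYC. No match overlapped another. TGATGNAA was in 5 of the 14 windows, against 3.62% of all 35116 windows. Of the 14 windows 7 lie wholly inside the gene as annotated in GENCODE 29, at alternative starts, and so do 4 of the 5 with TGATGNAA (SLC1A5, SLC1A4, SLC3A2 and SLC38A1); that of SLC7A1 is at the start of the gene. These 5 windows belong to SLC1A5, SLC1A4, SLC3A2, SLC38A1 and SLC7A1, of which SLC1A5 alone was lowered. The 5 sites are shown in the direction of the gene and with the match in capitals, which is the reverse complement of TGATGNAA for SLC1A4 and SLC3A2.
SLC1A5, chr19:46784893-46784922, minus strand: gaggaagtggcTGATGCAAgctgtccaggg
SLC1A4, chr2:64989381-64989410, plus strand: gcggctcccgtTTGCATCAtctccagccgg
SLC3A2, chr11:62881719-62881748, plus strand: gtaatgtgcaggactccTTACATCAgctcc
SLC38A1, chr12:46266502-46266531, minus strand: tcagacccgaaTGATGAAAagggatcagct
SLC7A1, chr13:29595663-29595692, minus strand: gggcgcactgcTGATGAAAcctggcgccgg

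TGACNNNGC was in 4 of the 14 windows (SLC7A5, SLC1A5, SLC3A2 and SLC7A1), against 13.3% of all windows. CACGTG was in 2, that of SLC7A5 and that of another inner start of SLC1A5, against 7.26% of all windows. Both genes with an E-box were lowered, and the same windows also hold TGACNNNGC, which SLC3A2 and SLC7A1, not called, hold as well. The window of SLC38A2, which was lowered, holds none of these sequences. MYC, a known activator of SLC7A5 and SLC1A5, was at -0.18 (log2 fold change, SE 0.12, adjusted p = 0.218) in the authors' deposited table. Whether MYC bears on either gene was not tested. The 250 bases before the start of SLC7A5, the member with the lowest adjusted p, are shown with the E-box in capitals, its first base 130 bases before the start. A match is a description of the sequence, and no match says only that these letters are not in the window.
SLC7A5, chr16:87869508-87869757, minus strand: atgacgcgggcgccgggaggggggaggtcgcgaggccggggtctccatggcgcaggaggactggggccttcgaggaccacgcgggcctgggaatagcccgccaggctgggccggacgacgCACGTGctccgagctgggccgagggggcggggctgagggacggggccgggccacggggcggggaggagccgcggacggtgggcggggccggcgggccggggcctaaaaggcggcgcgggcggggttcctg

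Genes around the transporters were read from 8 lists, in which 25 of 175 genes in the table (14.3%) were lowered and 6 (3.43%) raised in the authors' deposited table, against 7.93% and 4.62% of all genes. At 500 or more mean normalized counts 13 of their 80 genes were lowered, near the 16.6% of all genes at that level. The list with the lowest median was that of NRF2 and glutathione genes, to which SLC7A11 is tied by its cystine import. Of its 18 genes 7 were lowered and none raised, with a median log2 fold change of -0.24, and at 500 or more mean normalized counts 5 of 12 were lowered in the authors' deposited table. NQO1, a quinone reductase and standard NRF2 target, was lowered 2.35-fold (log2 fold change -1.23, SE 0.16, adjusted p = 3.11e-14) in the authors' deposited table. GCLM, the modifier subunit of the rate-limiting enzyme of glutathione synthesis, was lowered 1.65-fold (-0.72, SE 0.15), the exporter gene ABCC3 1.70-fold (-0.77, SE 0.15) and the haem oxygenase gene HMOX1 1.97-fold (-0.98, SE 0.24), per the authors' deposited table. The glutathione reductase gene GSR (-0.37, SE 0.14) and GGT1 (-0.54, SE 0.29), which breaks down extracellular glutathione, were lowered as well in the authors' deposited table. The other 11 genes were not called, among them NFE2L2, the gene of NRF2 itself (-0.07, SE 0.12, adjusted p = 0.679), in the authors' deposited table. GCLC (-0.18, adjusted p = 0.170), SRXN1 (-0.15, adjusted p = 0.328) and TXNRD1 (-0.11, adjusted p = 0.493) were not called either. GSS was above 0 (0.22, adjusted p = 0.121) and also not called in the authors' deposited table. None of the 18 genes of this list holds GATTGAA in its 3' UTR.

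The ATF4 and amino acid response list went both ways: of 24 genes 5 were lowered and 2 raised, and the median log2 fold change was -0.02 in the authors' deposited table. At 500 or more mean normalized counts 2 of its 11 genes were lowered, near the 16.6% of all genes at that level. DDIT4, an inhibitor of mTORC1, was lowered 3.82-fold (log2 fold change -1.94, SE 0.12), the pseudokinase gene TRIB3 1.66-fold (-0.73, SE 0.17) and PPP1R15B, which directs dephosphorylation of eIF2alpha, 1.46-fold (-0.55, SE 0.13), per the authors' deposited table. STC2 (-0.63, SE 0.43) and CEBPB (-0.40, SE 0.22) were lowered with adjusted p of 0.0346 and 0.0413 in the authors' deposited table. The transcription factor genes ATF5 (0.45, SE 0.14) and ATF3 (0.48, SE 0.19) were raised in the authors' deposited table. ATF4 itself (-0.05, SE 0.12, adjusted p = 0.811) and ASNS (0.05, SE 0.12, adjusted p = 0.806) were not called in the authors' deposited table. GATTGAA is in the 3' UTR of 3 of the 24, PPP1R15B and, not called, KLHL24 and EIF2AK4.

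Few genes of amino acid metabolism and tRNA charging were called, which also holds for genes at large. Of all genes 7.93% were lowered and 4.62% raised, and at 500 or more mean normalized counts 16.6% were lowered in the authors' deposited table. Of 22 genes of serine, glycine, proline and glutamine metabolism, 1 was lowered and 1 raised in the authors' deposited table. The raised gene was GLUL, which encodes glutamine synthetase (log2 fold change 0.38, SE 0.12, adjusted p = 0.00149 in the authors' deposited table). Of 20 cytoplasmic aminoacyl-tRNA synthetase genes, IARS, for isoleucine, was lowered 1.96-fold (-0.97, SE 0.15, adjusted p = 7.13e-10) and the other 19 were not called in the authors' deposited table. The 3' UTRs of 4 synthetase genes hold GATTGAA, IARS and, not called, MARS, TARS and WARS.

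Of 34 genes of amino acid sensing by mTORC1, 5 (14.7%) were lowered and none raised, against 7.93% and 4.62% of all genes. Their median log2 fold change was -0.04 in the authors' deposited table. At 500 or more mean normalized counts 3 of 11 were lowered, against 16.6% of all genes at that level. The 5 became 2 at an adjusted p under 0.01 and 1 with a Holm adjustment of the deposited p-values. SEH1L, of the GATOR2 complex and the nuclear pore, was lowered 1.96-fold (log2 fold change -0.97, SE 0.12, adjusted p = 1.79e-14) in the authors' deposited table. FLCN (-0.34, SE 0.11), a GTPase-activating protein for Rag GTPases, TSC2 (-0.29, SE 0.11), which restrains mTORC1, RPTOR (-0.22, SE 0.08), the substrate-binding subunit, and the sestrin gene SESN3 (-0.72, SE 0.40) followed in the authors' deposited table. GATTGAA is in the 3' UTR of 6 of the 34, of which 3 were lowered (SEH1L, FLCN and SESN3) and the other 3 were not called. Over all lists 19 of 175 genes hold it and 7 of the 19 were lowered in the authors' deposited table. Of all genes with a 3' UTR 9.50% hold it, and 23.9% of those were lowered. At 500 or more mean normalized counts 37.9% of the genes with it were lowered. The word was found in that same gene table and the shares are not matched for 3' UTR length, so they are a description.

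The remaining amino acid carriers showed no common direction. Of 30 other plasma membrane transporters 4 were lowered and 2 raised, with a median log2 fold change of -0.05 in the authors' deposited table. SLC1A3, a glutamate and aspartate carrier, was raised (log2 fold change 1.00, SE 0.19, adjusted p = 1.02e-07), as was SLC36A4, a carrier of proline and tryptophan (0.35, SE 0.11), per the authors' deposited table. The lowered ones were of low abundance: SLC6A15 (-1.23, SE 0.88), SLC1A2 (-0.82, SE 0.65), SLC6A5 (-0.59, SE 0.72) and SLC38A3 (-0.41, SE 0.70) had 72.6 mean normalized counts or less, and none of the 4 passed a Wald test on the shrunken values of the authors' deposited table. Of 16 lysosomal and mitochondrial carriers, SLC25A29, a mitochondrial carrier of basic amino acids, was raised (0.62, SE 0.16) and SLC25A2 lowered (-0.68, SE 0.69) at 9.59 mean normalized counts in the authors' deposited table. Of 13 regulators of transporter level, TXNIP, an arrestin-domain protein, was lowered 1.40-fold (-0.49, SE 0.11, adjusted p = 1.81e-05) and the other 12 were not called in the authors' deposited table.

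**Figure D4:**
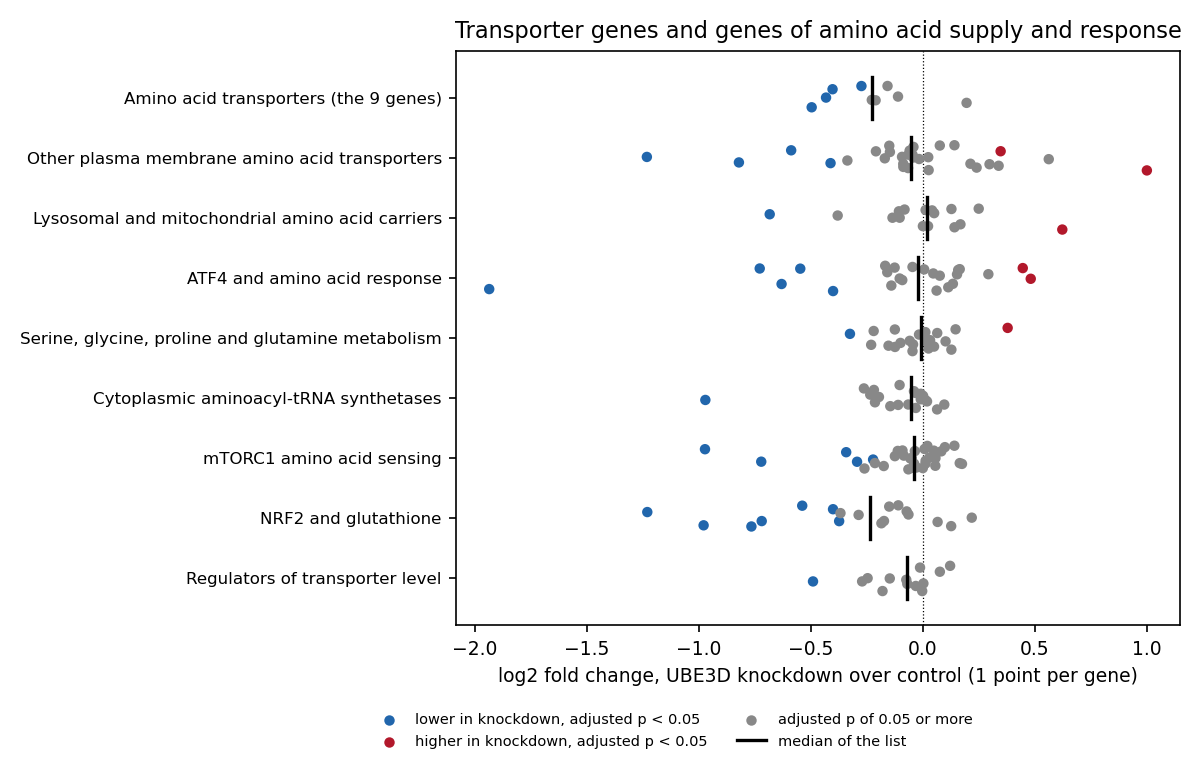
Log2 fold change of each gene (x axis, knockdown over control, 1 point a gene) for the 9 transporter genes and 8 lists around them, with black bars at the median of each list and points spread vertically to keep them apart. The transporters (median -0.23) and the NRF2 and glutathione genes (median -0.24) lie lowest, and the other medians lie between -0.07 and 0.02.

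Readthrough past the transporter genes could not be read, as no region bears a member's name. A region of their own name exists for 18.5% of the genes at 500 or more mean normalized counts, and for none of the 7 members at that level. The way the authors called regions is not known here, so a gene without a region is not shown to lack readthrough. Of the 175 list genes 19 have a region, of which 4 were raised and 3 lowered in the authors' deposited table, where 12.7% of all regions were raised and 16.1% lowered. The region of the tyrosyl-tRNA synthetase gene YARS was lowered (log2 fold change -1.25, SE 0.10, adjusted p = 1.45e-33), while YARS itself had -0.20 (SE 0.14, adjusted p = 0.228) in the authors' deposited tables. KIAA1522, within 10 kb past the end of YARS on the opposite strand, had a log2 fold change of -1.19 (SE 0.11) in the authors' deposited table, and its part in the region's value was not tested. PPP1R15B, lowered as a gene, had a region at -0.17 (SE 0.18, adjusted p = 0.367) in the authors' deposited table. Levels in the gene and region tables may have been scaled separately and are not compared.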

How the data were processed

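RNA of 3 UBE3D knockdown and 3 control libraries of MDA-MB-231 cells was depleted of ribosomal RNA and sequenced as stranded pairs of 75 bp, per the labels' protocols. Reads were handled with cutadapt 1.8.1 and STAR 2.5.2b on hg38 and compared with DESeq2, as far as the submitters' processing notes list tools and build. Neither they nor the labels state the annotation, counting tool, strand setting or region caller. Both deposited tables hold 1 comparison with, per the file headers, the mean of normalized counts (a signal), the log2 fold change with its SE, and the p-value with its adjusted form, by gene or by readthrough region. No value per library is given, so the precision of a value is known from its SE alone and sequencing depth is unknown. The adjusted p equals a Benjamini-Hochberg adjustment over all 20115 genes, and calls use it at 0.05. Log2 fold changes over their SE were smaller than the normal quantile that their p-value gives in all 20112 gene rows compared (median ratio 0.640), as shrinkage makes them.

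Members, lists, words and motifs were chosen with earlier results of these data known, and the 5 pairs of members after their values were seen. The rule for naming took all members and, per list, up to 6 genes past the threshold by p-value. CEBPB and GGT1 complete their lists. SLC3A2 partners, overlapping genes, MYC, markers and genes with regions or with GATTGAA were added after values were seen. So were the uncalled genes named in the NRF2 and ATF4 lists. Lists are described by counts and medians without a set test. Of 181 listed symbols 175 were in the table. Intervals of 95% assume a normal error, and differences use the root of summed squared SE. Coordinates, exon lengths and 3' UTRs (the longest in basic coding transcripts, at least 50 bases) come from GENCODE 29 on GRCh38, which may differ from the authors' annotation. Python 3.11.15, numpy 2.4.6, pandas 2.3.3, scipy 1.17.1, Biopython 1.88 and matplotlib 3.10.9 were used. The adjustment and Wald steps were tested on simulated data. Alternatives were other thresholds, the Holm adjustment, minimum means of 50 and 100, and Wald tests on the shrunken values with and without a shift to a median of 0. A few genes that enter the counts are not reported here by name.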

Additional observations from a re-analysis of the deposited data

How the results depend on the processing

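No paired analysis was possible because the deposited tables hold no value per library, and for the same reason leaving out replicates was not run; the alternatives for readthrough regions of members were not run because no region bears a member's name. No member changed direction under any of the 8 alternatives. The 4 lowered members became 0 with the Holm adjustment (lowest adjusted p 0.178, SLC7A5) and 1, SLC7A5, in the Wald test with fold changes shifted by their median over all genes, where SLC7A11 (adjusted p = 0.0554) and SLC1A5 (adjusted p = 0.0909) missed the threshold; the other alternatives gave 3 to 5, and no member was raised under any of the 8. SLC38A2 lost its call under 5 of the 8 and SLC38A1 gained one at an adjusted p under 0.1. The 7 lowered NRF2 and glutathione genes became 4 with the Holm adjustment and in each of the 3 Wald tests, and 6 to 8 otherwise. Over all lists the 25 lowered genes became 14 at an adjusted p under 0.01, 10 with the Holm adjustment, 11 in the Wald test on shrunken values, 10 with the shift over all genes and 11 with the shift over genes with a mean of at least 100; the 6 raised genes became 10 at an adjusted p under 0.1 and 1 with the Holm adjustment. A Wald test on shrunken values can only weaken calls. In the 3 Wald tests the mTORC1 list had 1 to 2 lowered genes in place of 5, and the other plasma membrane transporters 0 in place of 4.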
